A study of Homo sapiens with 6 samples.

Results

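The G2/M and mitosis genes are a set of 42 genes that act from late G2 to the end of cytokinesis: mitotic cyclins and CDK1 with its regulators, mitotic kinases, spindle checkpoint proteins, kinetochore and centromere proteins, mitotic kinesins, spindle and midbody proteins, and partners of the anaphase-promoting complex. They are a list of gene symbols, matched to the platform's probe annotation, and the list was drawn up with earlier results of these data known. All 42 were found, out of 16922 named genes on the array, and they are represented by 57 probes. Each of the 57 probes was detected above background on all 6 arrays, so none was lost to the filter on dim probes.

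PC3, a human line established from a bone metastasis of prostate cancer, was studied with cells that express either green fluorescent protein (GFP, the control, 3 arrays) or the G protein-coupled receptor kinase GRK3 (3 arrays). Both groups were grown in RPMI medium with fetal bovine serum, penicillin and streptomycin, and total RNA was hybridised to Illumina Ref-8 v3 BeadChips. The labels name neither the promoter behind either transgene nor whether the cells of a group were pooled or cloned. The series title puts the question as which genes GRK3 regulates in these cells, and the contrast is GRK3 minus GFP.

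Proliferating cells make most of these transcripts periodically, with a peak in G2 and mitosis. CDK1 with cyclin B drives entry into mitosis, the spindle checkpoint holds the anaphase-promoting complex back until every kinetochore is attached, and that complex then triggers chromosome separation and cyclin destruction. In quiescent cells the genes are held down by repressor complexes, among them the DREAM complex, that act at short promoter elements known as the cell cycle homology region, and in cycling cells B-MYB and FOXM1 activate them, often together with NF-Y at CCAAT boxes. Tumours with many dividing cells show high levels of the whole set, which is why it is used as a proliferation signature in prostate cancer.

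The promoter elements are shared by most of the set, and the selection by symbol did not use them. Promoter sequences, credited to RefSeq on GRCh38.p14 and running from 250 bases before to 50 bases after the transcription start, were found for 35 of the 42 genes as 44 entries. FOXM1, TPX2, UBE2C, BIRC5, BUB3, TTK and AURKA had no entry. Both strands were searched for TTTGAA and TTTAAA, 2 forms of the cell cycle homology region, and for CCAAT. Of the 129 matches, 4 overlapped the match before them. TTTGAA was found in 61.4% of the member entries and in 15.2% of all 35116 entries. TTTAAA was found in 34.1% of member entries against 12.2% of all. CCAAT was found in 77.3% against 34.6%. A CCAAT together with either form of the homology region was present in 61.4% of member entries and 9.27% of all. Within 50 bases on either side of the start, a homology motif lay in 28 member entries (63.6%) and in 7.62% of all entries. A match is a string of letters and not a measured binding site.

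Promoters of 2 pairs of related genes show the arrangement: the B-type cyclins CCNB1 and CCNB2, and the CDK1-binding subunits CKS1B and CKS2. Each runs 5′ to 3′ in the direction of transcription, with matches to the 3 motifs on either strand in capitals (ATTGG and TTCAAA are the reverse strand of CCAAT and TTTGAA).
CCNB1, chr5:69166900-69167199, plus strand: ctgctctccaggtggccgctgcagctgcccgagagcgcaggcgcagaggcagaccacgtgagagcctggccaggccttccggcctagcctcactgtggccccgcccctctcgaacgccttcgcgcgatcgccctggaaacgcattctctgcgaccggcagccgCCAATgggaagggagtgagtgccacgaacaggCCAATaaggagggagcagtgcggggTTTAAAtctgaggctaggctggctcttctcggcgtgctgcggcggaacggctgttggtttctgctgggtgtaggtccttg
CCNB2, chr15:59104896-59105195, plus strand: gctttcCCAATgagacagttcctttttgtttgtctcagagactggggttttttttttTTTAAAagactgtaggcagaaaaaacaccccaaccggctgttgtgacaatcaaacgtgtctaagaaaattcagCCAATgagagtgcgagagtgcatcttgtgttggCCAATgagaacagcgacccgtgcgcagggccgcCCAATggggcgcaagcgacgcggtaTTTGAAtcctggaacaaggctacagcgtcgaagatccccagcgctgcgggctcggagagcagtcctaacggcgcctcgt
CKS1B, chr1:154974431-154974730, plus strand: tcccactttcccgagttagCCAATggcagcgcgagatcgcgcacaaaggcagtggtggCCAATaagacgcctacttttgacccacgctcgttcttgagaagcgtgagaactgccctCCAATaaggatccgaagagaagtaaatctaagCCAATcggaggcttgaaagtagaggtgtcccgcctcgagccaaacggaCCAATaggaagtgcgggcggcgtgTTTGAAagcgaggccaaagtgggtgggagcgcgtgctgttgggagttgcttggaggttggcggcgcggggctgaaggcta
CKS2, chr9:89310945-89311244, plus strand: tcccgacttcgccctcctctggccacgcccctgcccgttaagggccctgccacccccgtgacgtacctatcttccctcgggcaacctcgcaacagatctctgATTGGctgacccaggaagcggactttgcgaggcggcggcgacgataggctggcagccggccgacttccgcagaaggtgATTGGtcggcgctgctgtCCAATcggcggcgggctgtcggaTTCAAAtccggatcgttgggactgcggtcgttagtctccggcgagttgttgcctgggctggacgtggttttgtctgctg
CCNB1 held 2 CCAAT matches and 1 TTTAAA. CCNB2 held 4 CCAAT, 1 TTTGAA and 1 TTTAAA. CKS1B held 5 CCAAT and CKS2 held 3, each with 1 TTTGAA. In all 4 promoters a homology motif began between 29 and 30 bases before the start, downstream of the CCAAT matches.

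**Figure D1:**
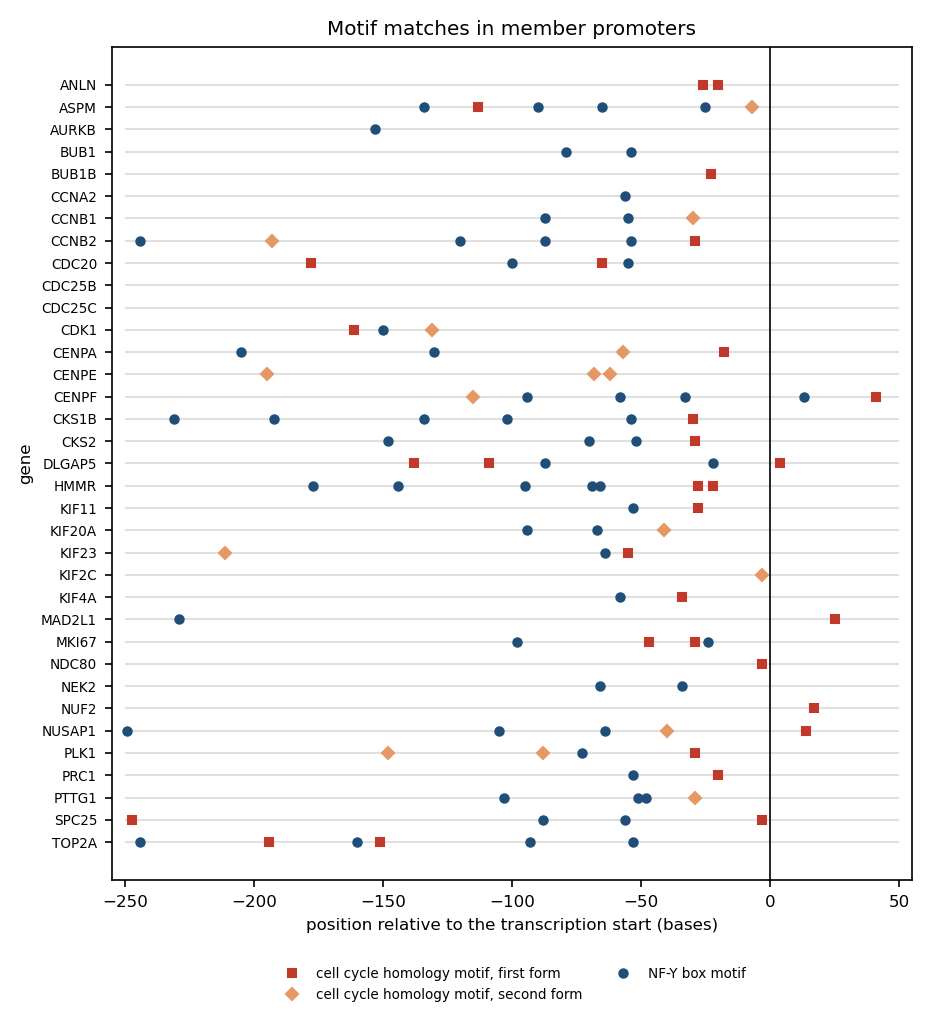
Motif matches in the promoters of the 35 members with an entry (1 entry per gene, the first in the reference table), by position in bases relative to the transcription start. Squares and diamonds are the TTTGAA and TTTAAA forms of the cell cycle homology region and circles are CCAAT; most homology matches lie close to the start with the CCAAT matches upstream of them, and the entries drawn for CDC25B and CDC25C hold none of the 3.

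Across the arrays the expression of the set was close to equal in GFP and GRK3 cells. None of the 57 probes passed the limma test (0 of 57 at an adjusted p under 0.05), while 81 of all 14130 tested probes did, or 0.573%. At that share, a lack of calls among 57 probes says little about the set. At an unadjusted p under 0.05 there were 4 member probes (7.02%), beside 11.6% of all probes. The 95% interval of the difference lay within 2-fold in either direction for all 57 probes, beside 99.1% of all tested probes, and within 1.5-fold for 56 of them, beside 91.9%. The exception was MAD2L1. These intervals are not adjusted for the number of probes. Because the RNA is from whole cultures, a different share of cells in G2 and mitosis cannot be told apart from a different amount of RNA per cell.

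Over the 42 genes, each at its brightest probe, the median difference was -0.03 on the log2 scale, against 0.00 over all 10586 tested named genes. The middle 50% of the 42 differences ran from -0.11 to 0.05, and the corresponding range over all genes was -0.09 to 0.09. Of the 42 genes, 26 lay below 0 and 16 above, so 61.9% were lower, beside 50.7% of all tested genes. The extremes were -0.28 and 0.37, while over all genes they were -2.31 and 2.39. For 33 of the 42 genes, the difference between groups was smaller than the range among the 3 GFP arrays, whose median was 0.18.

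**Figure D2:**
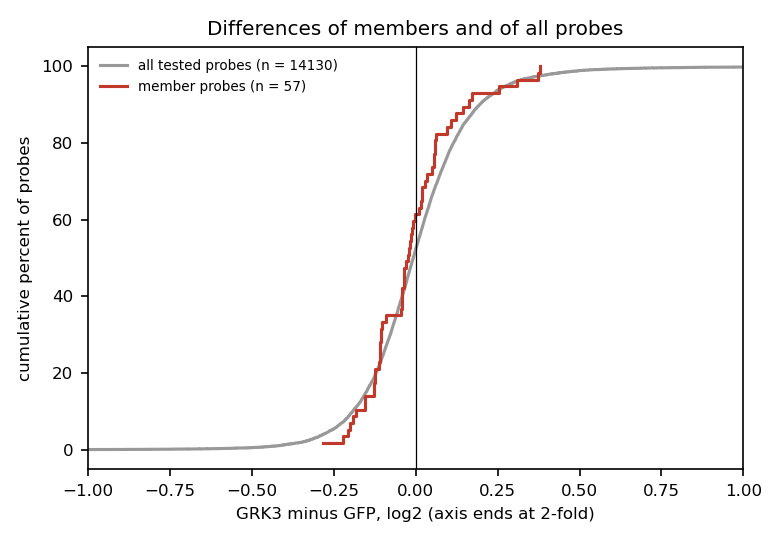
Cumulative percent of probes by their log2 difference, GRK3 minus GFP, for the 57 member probes and all 14130 tested probes (the axis ends at 2-fold). The member curve runs close to that of all probes, between -0.28 and 0.38.

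The facts of the arrays as a whole are as follows. Mean signal per array was 1171 to 1387, and 56.2% to 58.6% of the 24526 probes were detected. The GRK3 probe was detected on 0 of 6 arrays, and where it lies against the carried sequence was not given, so the labels cannot be checked with it. The epithelial markers KRT8, KRT18, KRT19, EPCAM and CDH1 were detected on all 6 arrays, and the prostate marker KLK3, known to be lacking in PC3 cells, on 0. Of 7 leukocyte markers, CD68, LYZ and MS4A1 had a probe detected on all 6 arrays, and PTPRC and CD3E were detected on 0. Of 8 fibroblast markers, COL1A1, LUM and PDGFRA were detected on 6 arrays, and COL1A2, COL3A1, DCN and THY1 on 0. Of 5 endothelial markers, PECAM1 was detected on 6 arrays, and CDH5, VWF, KDR and TEK on 0. The summed normalized signal of all probes of a list was 1572 to 1751 on GFP and 1666 to 1847 on GRK3 arrays for leukocytes. It was 547 to 563 and 580 to 589 for fibroblasts, and 864 to 1006 and 1013 to 1075 for endothelium. The last 2 sums did not overlap between the groups, and at single probes this held for 16.4% of all tested probes. The endothelial sum came mostly from the 1 PECAM1 probe, and the fibroblast sum includes probes of genes detected on 0 arrays. Of the fibroblast genes detected on 6 arrays, LUM and PDGFRA differed by more than 0 and COL1A1 by -0.01. Neither sum shows a difference across its whole list. An unadjusted p under 0.05 was found for a dimmer CD68 probe (-0.65 ± 0.16, SE), LUM (0.29 ± 0.12, SE) and PDGFRA (0.25 ± 0.09, SE). Their limma adjusted p-values were 0.131, 0.412 and 0.311. They are 1 of 5 tested leukocyte probes and 2 of 3 tested fibroblast probes, beside 11.6% of all tested probes. The brighter CD68 probe read 9.87, 9.68 and 10.02 on GFP and 10.14, 9.96 and 10.01 on GRK3 arrays. No probe of these marker lists passed the test, beside 0.573% of all tested probes. The part of these lists in the member differences was not tested.

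Counted at any probe, the spindle checkpoint genes included both members with the highest differences, BUB3 and MAD2L1. At its brightest probe BUB3 differed by 0.16, below MKI67 (0.25) and TTK (0.17). BUB3 (chromosome 10, bases 123154402 to 123170467) encodes a protein that brings the kinases BUB1 and BUBR1 to unattached kinetochores. At its second-brightest probe BUB3 had normalized log2 values of 11.37, 11.30 and 11.27 in GFP cells and 11.69, 11.61 and 11.78 in GRK3 cells. All GRK3 values lay above all GFP values. The difference was 0.38 ± 0.09 (SE), a 1.30-fold difference, with a limma adjusted p of 0.113. This probe passed in 2 of 16 alternative analyses, namely without background correction (limma adjusted p = 0.0495) and with an intensity trend (0.0479), in a range up to 0.382.

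The other BUB3 probes pointed the same way. The brightest read 13.63, 13.50 and 13.50 on GFP and 13.66, 13.74 and 13.72 on GRK3 arrays, a difference of 0.16 ± 0.09 (SE). The dimmest read 7.75, 7.91 and 7.61 on GFP and 8.01, 8.14 and 8.07 on GRK3 arrays, a difference of 0.31 ± 0.10 (SE). The groups did not overlap at either probe, and the limma adjusted p-values were 0.530 and 0.263.

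MAD2L1 (chromosome 4, bases 120055623 to 120066848) encodes MAD2, which binds CDC20 and so inhibits the anaphase-promoting complex. Its values were 10.13, 10.15 and 10.21 on GFP arrays and 10.66, 10.29 and 10.66 on GRK3 arrays. The lowest GRK3 value, replicate 2, lay just above the highest GFP value, and the other GRK3 arrays stood well above both. The difference was 0.37 ± 0.11 (SE), with a 95% interval from 0.12 to 0.63 and a limma adjusted p of 0.234. TTK, the checkpoint kinase MPS1, differed by 0.17 ± 0.10 (SE). The remaining checkpoint members lay on the other side of 0. BUB1, a kinase of the checkpoint, differed by -0.19 ± 0.10 (SE) and BUB1B, which encodes BUBR1, by -0.05 ± 0.09 (SE). Hence 3 of 5 checkpoint genes were above 0 and 2 below, with a median of 0.16, and 0 of their 7 probes passed.

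**Figure D3:**
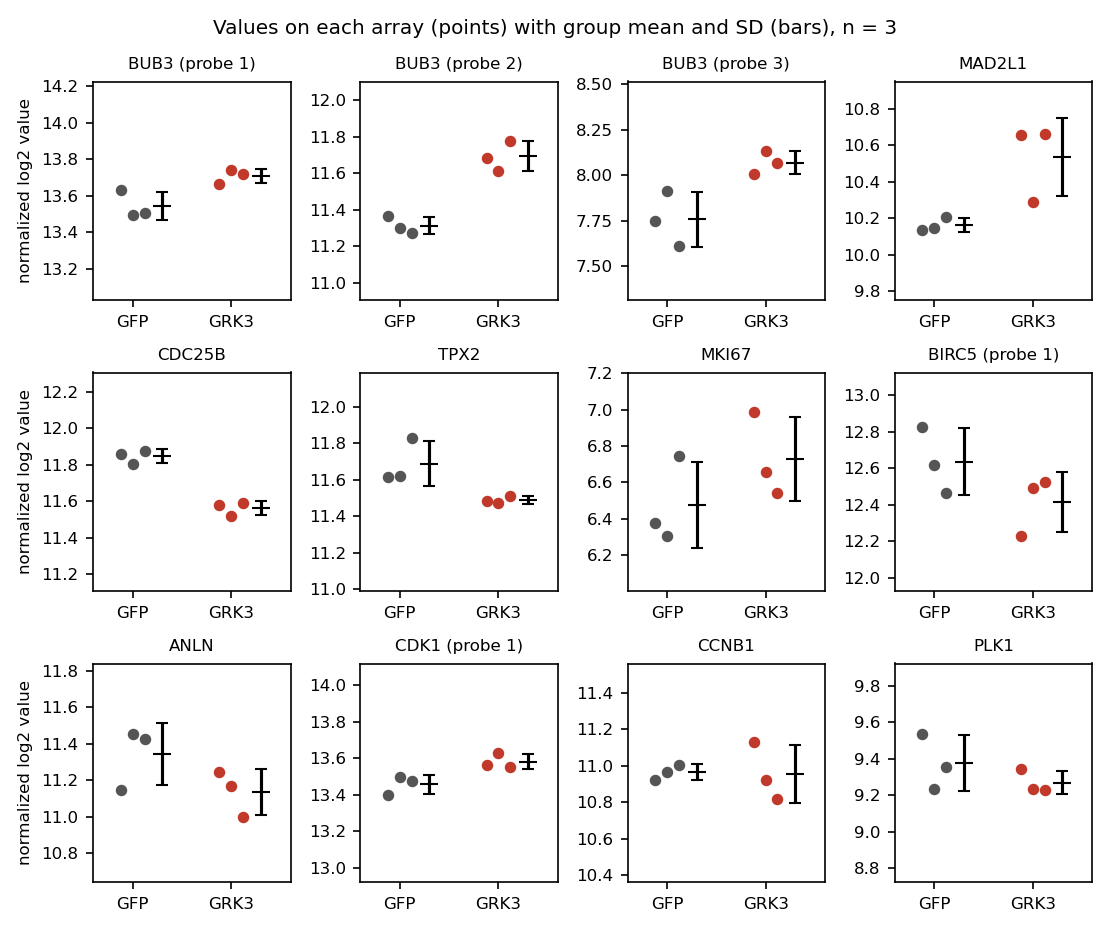
Normalized log2 values on each array (points) with the group mean and SD (bars, n = 3) for 12 probes of 10 members, each panel spanning 1.2 log2 units; BUB3 probes are numbered from the brightest. GFP and GRK3 points separate at the 3 BUB3 probes, MAD2L1, CDC25B, TPX2 and the brighter CDK1 probe, and overlap in the other panels.

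Among the genes of CDK1 control, CDC25B had the lowest difference of all members. CDC25B (chromosome 20, bases 3786951 to 3806115) encodes a phosphatase that removes inhibitory phosphates from CDK1 at the start of mitosis. It read 11.86, 11.80 and 11.88 on GFP arrays and 11.58, 11.52 and 11.59 on GRK3 arrays, so the groups were fully apart with little spread within either. The difference was -0.28 ± 0.08 (SE), a 1.22-fold difference, with a limma adjusted p of 0.211. Its relative CDC25C, probed at 3 sites, had differences between 0.02 and 0.06. Over the alternatives the limma adjusted p of CDC25B ran from 0.115 to 0.504.

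CDK1, the kinase that drives mitosis, gave a small difference. Its brighter probe read 13.40, 13.50 and 13.47 on GFP arrays and 13.56, 13.63 and 13.55 on GRK3 arrays. These groups did not overlap, but the difference of 0.12 ± 0.08 (SE) had a limma adjusted p of 0.664. The dimmer CDK1 probe, at 11.67, 11.80 and 11.72 against 11.89, 11.88 and 11.62, overlapped between groups.

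Cyclin B1 (CCNB1), the activating partner of CDK1, read 10.92, 10.97 and 11.01 on GFP arrays and 11.13, 10.92 and 10.82 on GRK3 arrays. GRK3 replicate 1 was the highest of the 6 arrays and GRK3 replicate 3 the lowest. The difference was -0.01 ± 0.10 (SE), with a 95% interval from -0.24 to 0.22. Cyclin B2 (CCNB2), whose promoter is printed above, differed by -0.02 ± 0.08 (SE). Cyclin A2 (CCNA2), which acts in S phase and G2, differed by -0.13 ± 0.09 (SE) and its groups did not overlap, with a limma adjusted p of 0.660.

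The CKS genes encode small subunits that dock CDK complexes to phosphorylated substrates. CKS1B read 12.93, 12.89 and 12.97 on GFP and 13.00, 12.94 and 13.02 on GRK3 arrays. CKS2 read 13.30, 13.48 and 13.42 on GFP and 13.54, 13.43 and 13.40 on GRK3 arrays. The groups overlapped for both genes. Their differences were 0.06 ± 0.08 (SE) and 0.06 ± 0.09 (SE), with 95% intervals from -0.13 to 0.25 and from -0.15 to 0.26.

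FOXM1, the transcription factor that activates many genes of the set in G2, read 10.39, 10.30 and 10.33 on GFP and 10.17, 10.09 and 10.30 on GRK3 arrays at its brighter probe. GRK3 replicate 3 reached the lower edge of the GFP values without crossing it. The difference was -0.15 ± 0.09 (SE), with a limma adjusted p of 0.585. The dimmer FOXM1 probe differed by -0.09 ± 0.09 (SE).

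The mitotic kinases showed differences between -0.11 and 0.15 at 5 probes. Polo-like kinase 1 (PLK1), needed for centrosome maturation and mitotic exit, read 9.54, 9.23 and 9.36 on GFP and 9.34, 9.24 and 9.23 on GRK3 arrays. GFP replicate 1 was the high value and the other arrays overlapped. The difference was -0.11 ± 0.10 (SE), with a 95% interval from -0.33 to 0.12. Aurora A (AURKA), the kinase of the spindle poles, read 12.99, 12.82 and 12.90 on GFP and 12.85, 12.90 and 12.88 on GRK3 arrays at its brighter probe. All 3 GRK3 values lay inside the GFP range. The AURKA probes differed by -0.02 and -0.04. Aurora B (AURKB), of the chromosomal passenger complex, differed by -0.04 ± 0.09 (SE), and the centrosomal kinase NEK2 by 0.15 ± 0.10 (SE).

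The anaphase-promoting complex partners were also close to equal. CDC20, the coactivator that the checkpoint restrains, read 13.85, 13.59 and 13.79 on GFP and 13.57, 13.64 and 13.63 on GRK3 arrays. The GFP arrays were the more spread out, and the difference was -0.13 ± 0.10 (SE). UBE2C, the ubiquitin-conjugating enzyme of the complex, read 13.67, 13.75 and 13.86 on GFP and 13.87, 13.62 and 13.69 on GRK3 arrays at its brighter probe. At its dimmer probe UBE2C read 6.97, 7.30 and 7.46 on GFP and 7.60, 7.21 and 7.003 on GRK3 arrays. Both probes overlapped and differed in sign, at -0.03 ± 0.10 (SE) and 0.03 ± 0.17 (SE). PTTG1, which encodes securin, the inhibitor of separase, differed by 0.11 ± 0.09 (SE).

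The proliferation marker Ki-67 (MKI67), a protein that coats mitotic chromosomes, read 6.38, 6.31 and 6.75 on GFP and 6.99, 6.66 and 6.54 on GRK3 arrays. GRK3 replicate 1 was the highest, and GFP replicate 3 exceeded the remaining GRK3 arrays. The difference was 0.25 ± 0.15 (SE), with a limma adjusted p of 0.568. Its only probe was dim, with means of 6.48 on GFP and 6.73 on GRK3 arrays. The MKI67 difference was 0.19 with an offset of 50, 0.15 without background correction and 0.25 with median scaling. Over all alternatives it ran from 0.13 to 0.39. TOP2A, the topoisomerase that untangles sister chromatids, read 11.70, 11.78 and 11.87 on GFP and 11.75, 11.71 and 11.94 on GRK3 arrays. Its difference was 0.02 ± 0.10 (SE), with a 95% interval from -0.20 to 0.24.

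BIRC5, which encodes survivin, the passenger-complex subunit that also counters apoptosis, read 12.83, 12.62 and 12.46 on GFP and 12.23, 12.49 and 12.52 on GRK3 arrays at its brighter probe. GRK3 replicate 1 was lowest and GFP replicate 1 highest. The difference was -0.22 ± 0.12 (SE), with a limma adjusted p of 0.544. The dimmer BIRC5 probe differed by -0.18 ± 0.11 (SE).

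Kinesins and spindle proteins leaned to the lower side by small amounts. Of the 5 kinesins, 4 were below 0 and the median was -0.11. KIF11, the motor that separates spindle poles, differed by 0.01 ± 0.11 (SE), and KIF4A, a chromosome-bound motor, by -0.12 ± 0.11 (SE). Of the 7 spindle and midbody genes, 5 were below 0 and the median was -0.10. None of the 15 probes of these groups passed.

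Anillin (ANLN), which organises the contractile ring, read 11.15, 11.45 and 11.43 on GFP and 11.25, 11.17 and 11.00 on GRK3 arrays. GFP replicate 1 lay within the GRK3 values, so the groups overlapped. The difference was -0.21 ± 0.11 (SE), with a limma adjusted p of 0.543. TPX2, which activates Aurora A on the spindle, read 11.61, 11.62 and 11.83 on GFP and 11.48, 11.47 and 11.51 on GRK3 arrays, which did not overlap. Its difference of -0.20 ± 0.09 (SE) had a limma adjusted p of 0.462.

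Both HMMR and NUSAP1, microtubule-binding proteins of the spindle, had probes that differed in sign. The NUSAP1 probes differed by 0.10 ± 0.08 (SE) and -0.01 ± 0.10 (SE). The brighter NUSAP1 probe read 12.14, 12.20 and 12.26 on GFP and 12.28, 12.31 and 12.30 on GRK3 arrays, and the groups did not overlap. The dimmer NUSAP1 probe read 11.26, 11.39 and 11.41 on GFP and 11.42, 11.44 and 11.17 on GRK3 arrays. For HMMR the differences were 0.02 and -0.0029. The brighter HMMR probe read 11.97, 12.13 and 12.06 on GFP and 12.01, 12.08 and 12.14 on GRK3 arrays. The dimmer HMMR probe read 11.81, 11.92 and 11.82 on GFP and 11.85 on each GRK3 array.

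At the kinetochore, 4 of 6 genes were below 0, with a median of -0.03, and 0 of 9 probes passed. CENPA, the histone H3 variant that marks the centromere, differed by -0.02 ± 0.10 (SE) and -0.11 ± 0.11 (SE) at its probes. The microtubule-attaching NDC80 complex contributed NDC80 at 0.05 ± 0.08 (SE), NUF2 at -0.15 to -0.03 over 3 probes, and SPC25. SPC25 had the widest spread of all members among the GFP arrays, at 8.11, 7.22 and 7.47. Its GRK3 values of 7.41, 7.65 and 7.89 fell inside that range, and the 95% interval of its difference ran from -0.41 to 0.52.

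**Figure D4:**
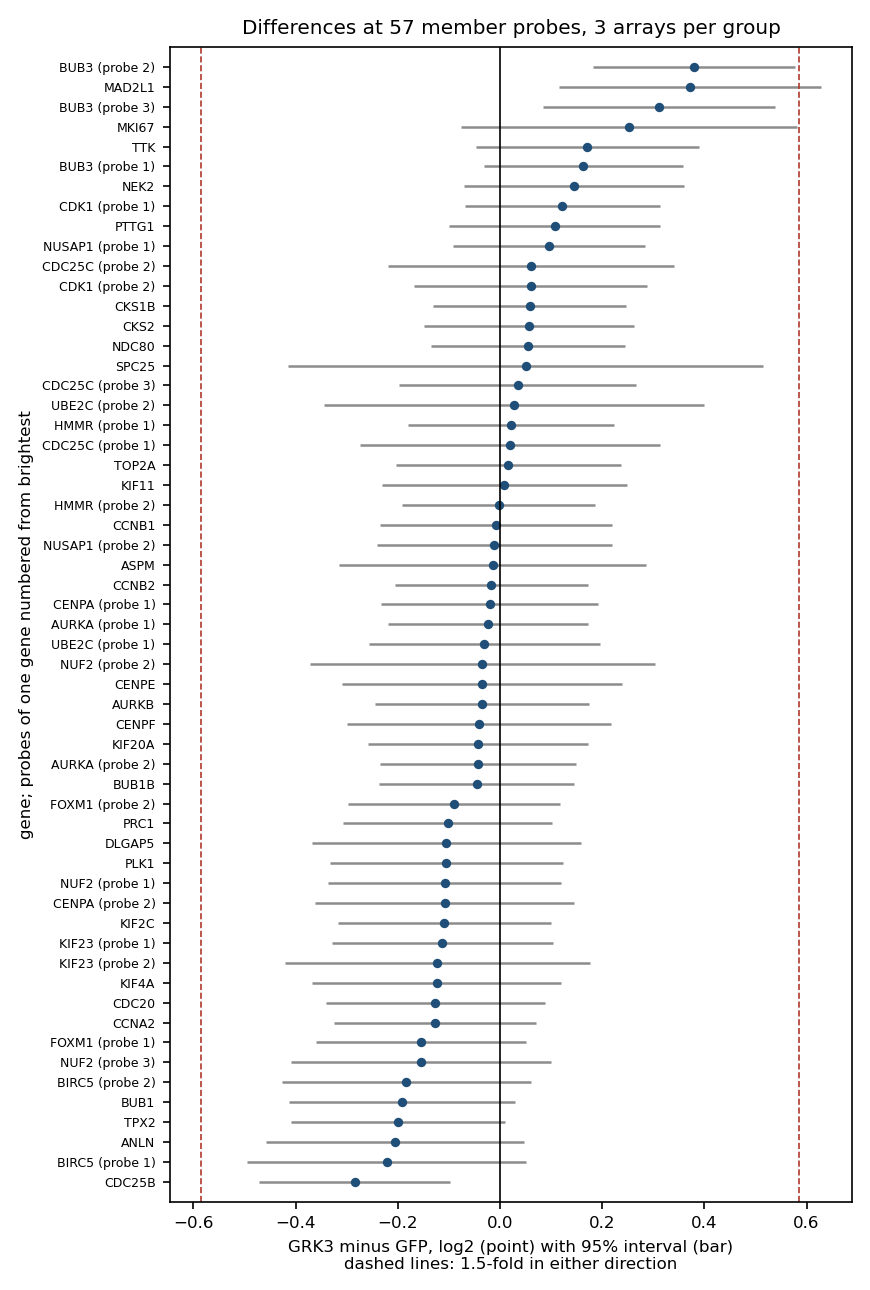
Log2 difference, GRK3 minus GFP, at each of the 57 member probes (points) with its 95% interval (bars), sorted by size; dashed lines mark 1.5-fold. Intervals of 2 BUB3 probes, MAD2L1 and CDC25B leave out 0, and the MAD2L1 bar alone crosses a dashed line.

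Counted by overlap, the 3 GRK3 arrays lay wholly on 1 side of the 3 GFP arrays at 10 of the 57 probes (17.5%), beside 16.4% of all tested probes. Of these, 6 were higher (10.5%, beside 8% of all probes) and 4 lower (7.02%, beside 8.38%). The higher ones were the 3 BUB3 probes, MAD2L1 and the brighter probes of CDK1 and NUSAP1. The lower ones were CDC25B, TPX2, CCNA2 and the brighter probe of FOXM1. These shares lie near those of all probes. Of the 12 members with several probes, 9 had all their probes on 1 side of 0.

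Differences among arrays of 1 group were of the same order as those between the groups. The median deviation of the 42 genes from their own 6-array means was -0.05, -0.02 and 0.06 on GFP replicates 1, 2 and 3, and 0.03, -0.04 and -0.05 on GRK3 replicates 1, 2 and 3. The 3 GRK3 medians thus lay within the span of the GFP medians, while the medians over all genes stayed between -0.0047 and 0.0090. GFP replicate 3 held the highest GFP value for 25 of the 42 genes (59.5%, beside 32.3% of all genes) and the lowest for 3. GFP replicate 1 held the lowest for 23 (54.8%, beside 35.4% of all genes). The spindle gene ASPM, at 10.48, 10.78 and 11.00 on the GFP arrays, shows that pattern, and its GRK3 values of 10.87, 10.72 and 10.63 lay between them. Whether culture density or another condition differed between the arrays of a group was not tested.

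**Figure D5:**
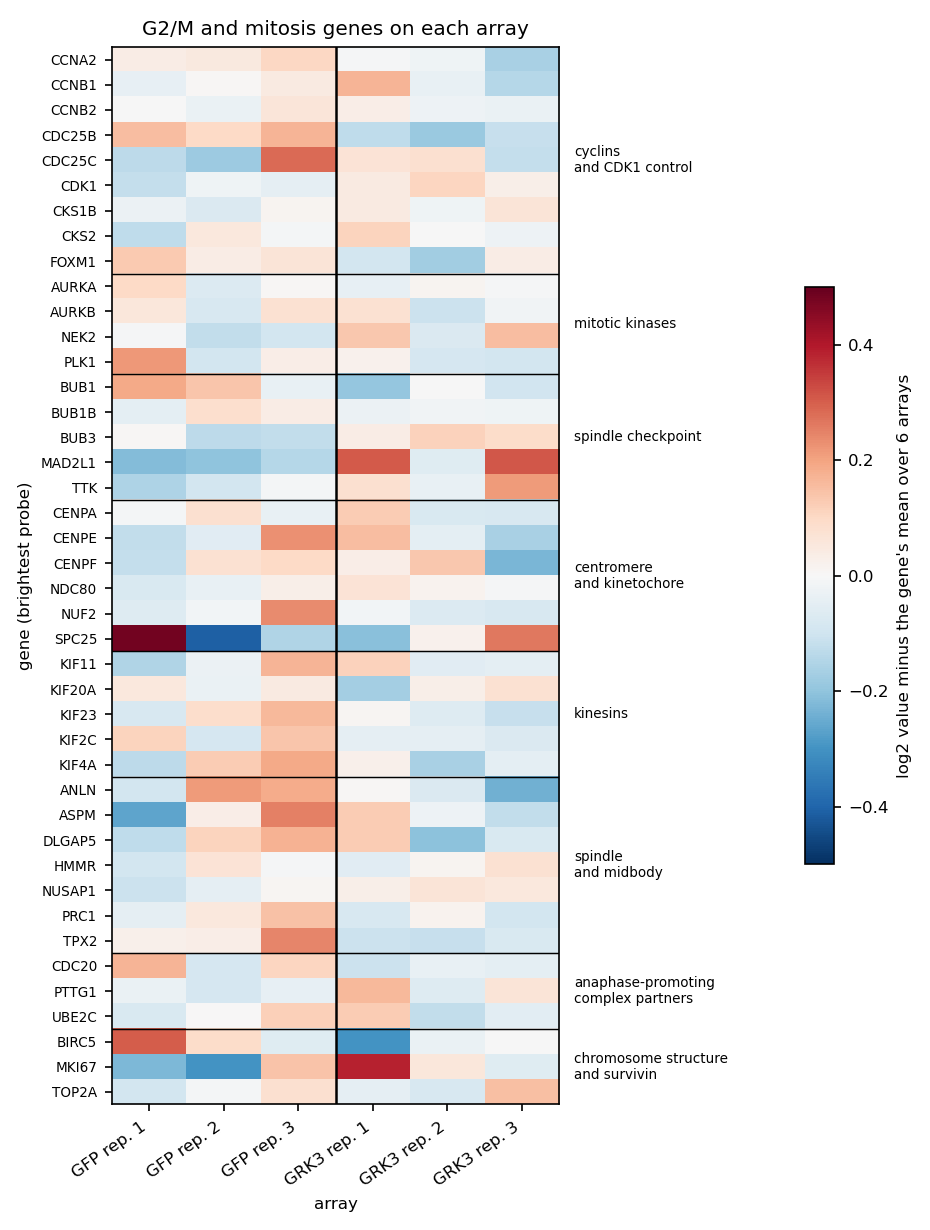
Deviation of each member's log2 value from its mean over the 6 arrays (colour, brightest probe per gene; the scale ends at 0.5 in either direction), with genes in rows by role and arrays in columns. On GFP replicate 3 there are 30 of 42 genes above their own mean and on GFP replicate 1 there are 14, while the GRK3 arrays have 26, 12 and 13.

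The wider mitotic machinery gave no calls either. In 6 further lists of 115 genes, 105 were tested with 127 probes and none passed with limma, beside 0.573% of all tested probes. With so low a share, a lack of calls in lists of this size says nothing particular about them. In these lists 11 probes (8.66%, beside 11.6% of all) had an unadjusted p under 0.05. The median difference of these genes was -0.03. Condensin and cohesin, the rings that fold and hold chromatids, were listed together with regulators such as ESPL1, SGO1 and WAPL. This list had 13 of 17 genes below 0, with SMC2 lowest at -0.26 ± 0.13 (SE). Other kinetochore and checkpoint genes had 18 of 25 below 0, with KNL1 at -0.25 ± 0.17 (SE). Other spindle and cytokinesis genes had 14 of 20 below 0 at their brightest probes, where the lowest difference was -0.21. The largest difference of that list at any probe was -0.26 ± 0.12 (SE), at a CKAP5 probe that was not its brightest.

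Subunits of the anaphase-promoting complex were listed together with its partners and regulators FZR1, UBE2S and FBXO5. The genes of this list lay on both sides, 8 of 13 above 0, led by ANAPC11 at 0.27 ± 0.09 (SE). The regulators of mitotic entry had 7 of 13 above 0 at their brightest probes, where the highest difference was 0.31. The lowest there was -0.34 ± 0.12 (SE), for PKMYT1, named after its values were seen. The largest at any probe was 0.35 ± 0.12 (SE), for ENSA, an inhibitor of the phosphatase PP2A-B55. That ENSA probe was not its brightest and was dim, with means of 5.95 on GFP and 6.30 on GRK3 arrays. Among regulators from the DREAM, B-MYB, NF-Y and E2F groups, 11 of 17 were below 0. E2F7, a repressor of E2F targets, was lowest at -0.39 ± 0.14 (SE), and E2F sites were not among the motifs searched. The limma adjusted p-values of the genes given with an SE in these lists ran from 0.277 to 0.635.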

How the data were processed

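RNA from 6 PC3 samples (3 labelled GFP, 3 labelled GRK3) was measured on 1-colour arrays. No label says that replicates are separate cultures, so p-values reflect spread between these samples only, and that spread may be technical. The members and gene lists were chosen with earlier results of these data known.

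The deposited table holds mean bead intensity at 24526 probes, not normalized per the file headers, and a detection p-value for each probe and array in the same deposited table. The software behind these columns was not given in the sources used here. The authors' value table is also intensity on a linear scale. It equals the first table times 1 factor per array (0.931 to 1.10), which equalises its column means at 1291.94. Its column medians are 131.6 to 140.7. It served as an alternative.

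Probe names come from the platform annotation, checked by Entrez identifier against RefSeq. A symbol was listed for 21834 probes (0 with several) and none for 2692. Whether a probe also binds a near-identical copy was not tested. Background correction, quantile normalization and the log2 step were done with neqc (limma 3.58.1, R 4.3.3, offset 16). The 14130 probes with a detection p under 0.05 on at least 3 of 6 arrays were tested with limma's two-sided moderated test (lmFit, eBayes, no covariate). Benjamini-Hochberg adjustment ran over all of them, with a threshold of 0.05 for a pass. Levels are log2 values whose size is not comparable between probes. A gene with several probes is represented in medians by its brightest. Precision is limited by having 3 arrays per group.

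The rule for named genes took any member that passed, the 6 with the largest differences (BUB3, MAD2L1, CDC25B, MKI67, BIRC5 and ANLN), MKI67, TOP2A, CDK1, CCNB1, PLK1, AURKA, FOXM1, CKS1B, CKS2, UBE2C and CDC20, members whose probes differ in sign, and per other list the largest difference. The largest differences were taken over all probes of a gene, not only its brightest. TPX2, SPC25 and ASPM were given array by array after their values were seen. The fit was tested on simulated data. Alternatives were 10 other settings and 6 runs that left out 1 array each.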

Additional observations from a re-analysis of the deposited data

How the results depend on the processing

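The count of 0 member probes past the threshold held in 14 of 16 alternatives. It was 1, at the BUB3 probe described above, with no background correction and with an intensity trend. The count over all probes, 81, was 139 with no background correction, 122 with an offset of 50, 23 with no detection filter, 136 with an intensity trend, 239 with array weights and 11 with the replicate block. With 1 array left out it ran from 23 to 183: leaving out GFP replicates 1, 2 and 3 gave 39, 24 and 30 calls, and leaving out GRK3 replicates 1, 2 and 3 gave 183, 23 and 35. The member median difference of -0.03 was -0.07 without GRK3 replicate 1 and 0.00 without GFP replicate 3. It moved in every alternative by less than its SD over arrays, 0.05. The other detection filters, the intensity trend and the replicate block could not move it, because they leave each difference unchanged. Leaving out 1 of 3 arrays shifts a group mean by less than the SD of that group, so those runs are a weak check.

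Of the 57 member probes, 35 kept their sign in all 16 alternatives, which include those named above that leave each difference unchanged. Among the members named by rule, none past the threshold, these changed sign. AURKA (brighter probe) was 0.013 with median scaling and 0.0018 with array weights. TOP2A was -0.0058 and HMMR (brighter probe) -0.0025 with the authors' value table. With median scaling the dimmer probes of HMMR and NUSAP1 were 0.021 and 0.0063. UBE2C was 0.046 with median scaling and 0.0014 with the authors' value table at its brighter probe, and -0.0010 and -0.077 with the authors' value table and array weights at its dimmer one. With 1 array left out, the range was -0.063 to 0.018 for AURKA, -0.095 to 0.061 for CCNB1, -0.055 to 0.061 for TOP2A, -0.020 to 0.060 and -0.021 to 0.031 for the brighter and dimmer HMMR probes, -0.059 to 0.076 for the dimmer NUSAP1 probe, and for UBE2C -0.10 to 0.022 at the brighter probe and -0.14 to 0.16 at the dimmer. The cause was not tested.

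The groups share replicate numbers, but no label says that these pair the samples. Deviations from the group means over the tested probes correlated at -0.41, 0.18 and -0.41 for numbers 1, 2 and 3. GFP replicate 1 correlated best with GRK3 replicate 3 (0.43) and GFP replicate 3 with GRK3 replicate 1 (0.51). GFP replicate 1 and GRK3 replicate 3 also had the lowest mean signals, 1215 and 1171. With 3 arrays per group, such correlations cannot settle whether the samples were paired. With the replicate block, 0 member probes passed.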

Other observations

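Genes of the preceding cell cycle phase and the CDK inhibitors were outside the mitotic set and gave no calls either. Of 32 tested G1/S and DNA replication genes (41 probes), 26 were below 0 (81.2%, beside 50.7% of all tested genes) and 6 above, with a median of -0.03. None passed with limma, beside 0.573% of all tested probes, so the lack of calls in so short a list says little. An unadjusted p under 0.05 was found at 3 probes (7.32%, beside 11.6% of all), all lower. Those were E2F1, a transcription factor of S-phase entry, at -0.40 ± 0.13 (SE), UHRF1, a reader of replicated methylated DNA, at -0.38 ± 0.11 (SE), and RRM2, a subunit of ribonucleotide reductase, at -0.40 ± 0.16 (SE), named after their values were seen. Their limma adjusted p-values were 0.263, 0.210 and 0.386.

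The CDK inhibitors had the larger differences. CDKN2A, the locus of p16 and ARF, differed by 0.74 ± 0.22 (SE) at its brighter probe, whose values of 11.57, 11.00 and 10.65 on GFP and 11.51, 11.84 and 12.07 on GRK3 arrays overlapped between the groups. Its dimmer probe differed by 0.59 ± 0.15 (SE) without overlap. CDKN1B, which encodes p27, differed by 0.38 ± 0.10 (SE) without overlap. CDKN1A, which encodes p21, differed by -0.41 ± 0.15 (SE) at its brighter probe, where the groups overlapped, and by -0.46 ± 0.12 (SE) without overlap at its dimmer probe, which was detected on 4 of 6 arrays. The limma adjusted p-values of these 5 probes, in the order given, were 0.210, 0.152, 0.140, 0.327 and 0.139, so none passed. They are the 5 of 9 tested probes of this list (55.6%, beside 11.6% of all) with an unadjusted p under 0.05.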
